A study of Homo sapiens with 60 samples.

Results

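ANGPTL4, PLIN2, PDK4, CPT1A, ACADVL, PPARD, PPARG and FABP3 are 8 genes of fatty acid handling that belong to, or are known targets of, the peroxisome proliferator-activated receptor (PPAR) pathway. They were chosen by gene identity and from their normalised read counts (CPM, counts scaled to library size) across all 20 treatment groups of this study, so the levels and ratios below describe them and are not tests of them. They are 8 of the 17792 genes that passed a filter on low counts, out of 60675 identifiers in the deposited table. FABP3 passed with only 1 to 15 counts per library.

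RNA was sequenced from SW1783, a human astrocytoma line, 24 h after treatment. The groups were water extracts of Liriopis seu Ophiopogonis Tuber, Schisandrae Fructus, Longan Arillus, Zizyphi Semen and Aucklandiae Radix at 20, 100 and 500 µg/mL, of Polygalae Radix at 10, 50 and 250 µg/mL, wortmannin at 10 µM as the positive control, and vehicle. Wortmannin inhibits phosphoinositide 3-kinases. Each of the 20 groups has 3 libraries. The vehicle is labelled 0.1% DMSO while the series text gives 2%, and no solvent content is labelled for the other groups. The series text also states that a herb whose IC20, the dose that inhibits by 20%, lay below 500 µg/mL was given at that dose and its dilutions. High, medium and low below are the doses of each herb.

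PPARs are nuclear receptors that bind fatty acids and their derivatives and act on DNA as partners of retinoid X receptors. Their best known targets are genes of lipid storage, lipid uptake and fatty acid oxidation. Several of those targets also answer to other signals: ANGPTL4 and PLIN2 are known to rise in hypoxia, and PDK4 in fasting and under glucocorticoids. Astrocytes store fatty acids in lipid droplets and are a main site of fatty acid oxidation in brain.

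Library totals ran from 9.34 M to 35.35 M counts, with a median of 25.71 M. Liriopis_high replicate 1 stood apart, with a mean correlation of 0.945 with the other libraries of its group. The counts and ratios it decides are also given without it. Of the astrocyte and glioma markers, VIM (4790 CPM), CD44 (2820 CPM) and CHI3L1 (748 CPM) were high in vehicle libraries, while GFAP averaged 0.148 CPM and AQP4 had no count there. SOX9 (81.1 CPM) and SLC1A3 (31.5 CPM), which astrocytes also express, were present, and S100B (0.0485 CPM) and ALDH1L1 (0.048 CPM) were nearly absent. Adipocyte markers were low too: ADIPOQ was at 0 in 59 of 60 libraries, LEP in 58 and FABP4 in 55. The sum over the 6 adipocyte markers ran from 4.4 CPM in vehicle to 7.46 CPM in Schisandrae_high, most of it from LIPE, which cells other than adipocytes also express. In bulk RNA, fewer cells that hold a transcript and less of it per cell cannot be told apart.

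ANGPTL4 and PLIN2 carry the main patterns below, so the promoter windows of both are shown. Each window holds the 250 bases before and 50 bases after the RefSeq transcription start (GRCh38.p14), chr19:8363905-8364204 on the plus strand for ANGPTL4 and chr9:19127443-19127742 on the minus strand for PLIN2. Capitals mark each match to the searched motifs on either strand.
ANGPTL4: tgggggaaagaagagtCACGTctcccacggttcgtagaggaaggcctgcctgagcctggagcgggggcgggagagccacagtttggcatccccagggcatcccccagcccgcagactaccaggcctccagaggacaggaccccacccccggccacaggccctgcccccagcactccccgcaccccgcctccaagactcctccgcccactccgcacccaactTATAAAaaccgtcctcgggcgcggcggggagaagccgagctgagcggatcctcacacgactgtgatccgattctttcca
PLIN2: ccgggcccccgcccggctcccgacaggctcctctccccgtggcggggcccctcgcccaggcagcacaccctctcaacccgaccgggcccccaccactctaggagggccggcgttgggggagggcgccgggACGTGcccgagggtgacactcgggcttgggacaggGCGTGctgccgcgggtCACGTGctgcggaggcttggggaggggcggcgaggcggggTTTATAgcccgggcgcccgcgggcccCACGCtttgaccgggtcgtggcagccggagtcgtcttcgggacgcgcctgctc

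The motifs searched were the hypoxia-inducible factor cores ACGTG and GCGTG, the nuclear receptor core AGGTCA, its direct repeat with 1 base between the copies (DR1, the classical PPAR element), the AP-1 site TGANTCA and the TATA box TATAAA. ANGPTL4 held ACGTG once, on the opposite strand at -234 from the start, and a TATA box at -29. PLIN2 held ACGTG at -120 and, as overlapping matches on both strands, at -69 and -68, with GCGTG at -85 and -3. Its TATAAA letters lie on the opposite strand at -29. Over all 35114 promoter windows of this length, 21.4% held ACGTG, 36.5% GCGTG and 11.5% TATAAA. No window of the 8 genes held the DR1 letters, which 0.0228% of all windows did, and the single core AGGTCA (13.8% of windows) was found only in windows of PPARG. The AP-1 letters (7.71% of windows) were found in 1 of the 2 windows of ACADVL. The DR1 letters are so rare that their absence from the 14 windows of the 8 genes says nothing about these genes. Looser matches and sites outside the windows were not searched. These are matches of letters within short windows and no binding was measured.

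ANGPTL4 encodes a secreted inhibitor of lipoprotein lipase. In GENCODE 29 it lies at chr19:8363289-8374373 on the plus strand (ENSG00000167772). It was highest at the high dose of 2 herbs. Aucklandiae_high libraries held 91.5, 99.3 and 84.8 CPM, against 13.3, 12.3 and 11.7 CPM in Aucklandiae_low. Schisandrae_high libraries held 92.1, 86.3 and 86.1 CPM, against 12.4, 11.1 and 11.3 CPM in Schisandrae_low. All 3 high dose libraries lay far above all 3 low dose libraries in both herbs. High over low dose, the fitted ratio was 7.61-fold for Schisandrae (log2 2.93 ± 0.10, SE) and 7.37-fold for Aucklandiae (log2 2.88 ± 0.10). Vehicle libraries held 13.6, 11.9 and 13.1 CPM.

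The steep part of both ANGPTL4 series lay between the medium and high doses. The means were 12.4 ± 0.803, 19 ± 1.36 and 91.9 ± 7.26 CPM at 20, 100 and 500 µg/mL Aucklandiae (SD, n = 3 libraries each). For Schisandrae they were 11.6 ± 0.659, 16 ± 0.735 and 88.2 ± 3.39 CPM at the same doses. At the medium dose the libraries already lay above all low dose libraries in both herbs, by log2 0.61 ± 0.10 for Aucklandiae and 0.47 ± 0.10 for Schisandrae (SE).

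Zizyphi_high stood next among the high doses, with 17.9, 17.3 and 20.2 CPM of ANGPTL4, against 11.2, 10.5 and 9.9 CPM in Zizyphi_low. The medium dose of Zizyphi averaged 10.1 CPM and overlapped the low dose. Wortmannin libraries held 17.5, 18.1 and 15.2 CPM, above all vehicle libraries (log2 0.40 ± 0.10, SE). Wortmannin and vehicle libraries each have a library name prefix of their own, so drug and prefix cannot be told apart. Polygalae, Longan and Liriopis showed little: their log2 ratios of high over low dose were 0.21, 0.00 and 0.06, each with an SE of 0.10 or 0.11. Without Liriopis_high replicate 1, at 18.7 CPM the highest of its group, the Liriopis ratio was log2 -0.16.

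Ordered by mean CPM, Aucklandiae_high and Schisandrae_high lead for ANGPTL4 and overlap each other, and both lie clear of Aucklandiae_medium (19 CPM), which comes next. From there to Polygalae_medium at the bottom (9.73 CPM) each neighbour overlaps the next, so 18 of the 19 neighbouring pairs do not differ beyond their spread. The ANGPTL4 gene overlaps RAB11B-AS1 on the opposite strand, which held 1289 counts over all libraries beside 31576 for ANGPTL4. The strand setting of the counting is not given in the sources used here.

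**Figure D1:**
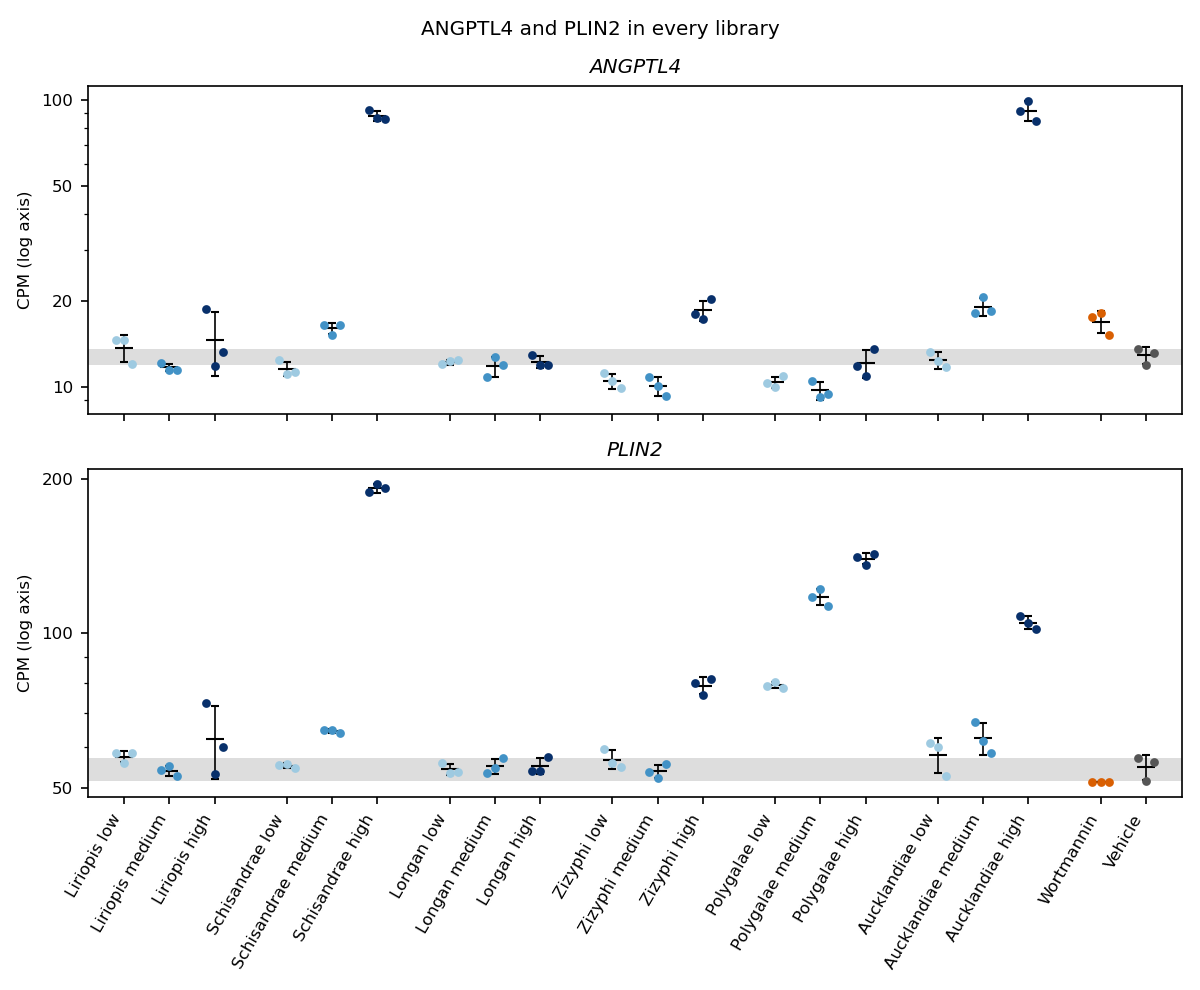
CPM of ANGPTL4 and PLIN2 in each library (points, log axes) by group, with the mean and SD of 3 libraries in black and the range of the vehicle libraries as a grey band. ANGPTL4 reaches 84.8 CPM or more in every library of Schisandrae_high and Aucklandiae_high, whereas PLIN2 is also above the band at all 3 doses of Polygalae.

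PLIN2 encodes perilipin 2, the coat protein of lipid droplets in most cells, and lies at chr9:19108375-19149290 on the minus strand (ENSG00000147872). Schisandrae_high libraries held 189, 196 and 192 CPM, against 55.4, 55.6 and 54.6 CPM in Schisandrae_low. That is a ratio of 3.48-fold (log2 1.80 ± 0.06, SE), with the medium dose at 64.5 ± 0.601 CPM (SD, n = 3). Aucklandiae_high held 108, 105 and 102 CPM, against 61.1, 59.9 and 52.7 CPM in Aucklandiae_low, a ratio of 1.81-fold (log2 0.85 ± 0.06). The Schisandrae and Aucklandiae high doses, which overlap in ANGPTL4, are well apart in PLIN2.

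Polygalae differed from those herbs in that PLIN2 was high at every dose. Its means were 79.2 ± 1.02, 118 ± 4.36 and 140 ± 3.33 CPM at 10, 50 and 250 µg/mL (SD, n = 3), and the libraries of neighbouring doses did not overlap. The ANGPTL4 means of the same libraries were 10.4, 9.73 and 12.1 CPM. Already the low dose lay above all vehicle libraries in PLIN2, by log2 0.53 ± 0.06 (SE), although vehicle libraries have a library name prefix of their own. Aucklandiae_low, which shares its prefix with Polygalae_low, held 61.1, 59.9 and 52.7 CPM, a range that overlaps that of vehicle and lies below all Polygalae_low libraries. Technical measures also moved with dose in these libraries. The mitochondrial share of counts was 12.5, 13.4 and 12.4% in Polygalae_high, against 11, 7.9 and 9.9% in Polygalae_low, and the normalisation factors were 1.084, 1.099 and 1.117, against 1.000, 1.051 and 1.019. Their part in the result was not tested. Scaled by raw totals, PLIN2 averaged 154 CPM in Polygalae_high and 81.0 CPM in Polygalae_low.

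Zizyphi_high held 80, 75.8 and 81.5 CPM of PLIN2, against 59.4, 55.8 and 54.9 CPM in Zizyphi_low (log2 0.48 ± 0.06, SE). Wortmannin libraries, at 51.2, 51.3 and 51.3 CPM, lay just below those of vehicle, at 57.1, 51.4 and 56.0 CPM (log2 -0.10 ± 0.06), and were the lowest group. In the order of PLIN2 means, Schisandrae_high, Polygalae_high, Polygalae_medium and Aucklandiae_high each lie clear of the next group. Polygalae_low and Zizyphi_high, at 79.2 and 79.1 CPM, overlap each other and lie clear of Schisandrae_medium. Over all groups, 13 of 19 neighbouring pairs overlap.

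**Figure D2:**
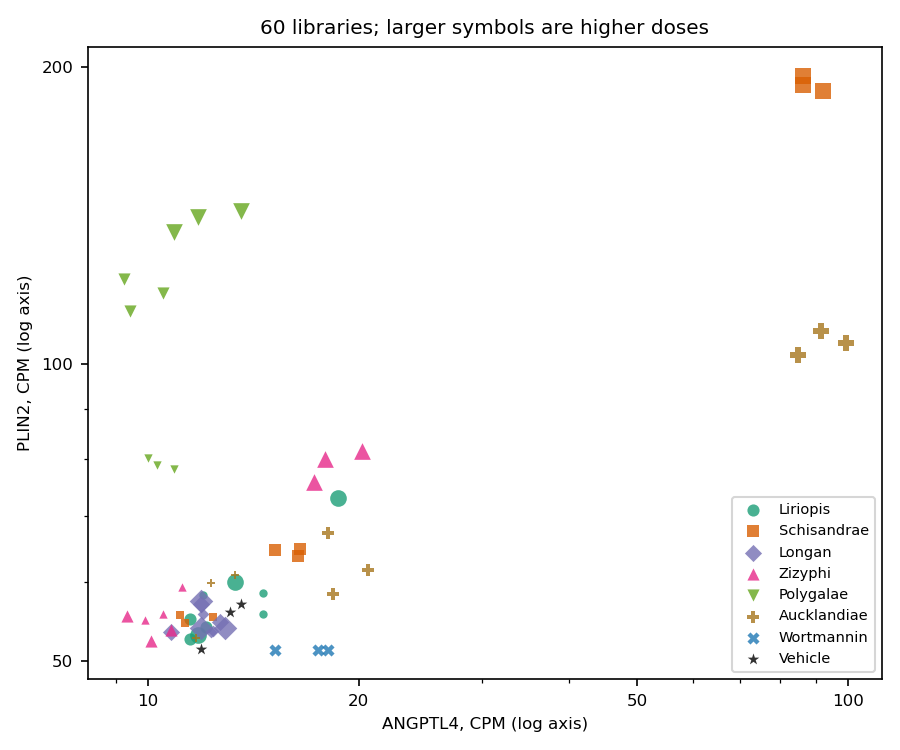
PLIN2 against ANGPTL4 in CPM (both axes log) in 60 libraries, with a symbol per herb or control whose size grows with dose. Polygalae libraries reach 143 CPM of PLIN2 at ANGPTL4 levels no higher than 13.6 CPM, and Aucklandiae_high has more ANGPTL4 relative to PLIN2 than Schisandrae_high.

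PDK4 encodes a kinase that inhibits pyruvate dehydrogenase and so spares glucose, and lies at chr7:95583499-95596491 on the minus strand (ENSG00000004799). It was scarce, with 15 to 28 counts per vehicle library. Schisandrae_high libraries held 5.76, 7.68 and 5.28 CPM, against 0.387, 0.806 and 0.882 CPM in Schisandrae_low, a ratio of 8.87-fold (log2 3.15 ± 0.33, SE). The medium dose of Schisandrae overlapped the low dose, and Schisandrae_high lay clear of all other groups, whose means ran from 0.482 to 1.43 CPM. Polygalae_high held 1.36, 1.34 and 1.6 CPM, against 0.547, 0.632 and 1.10 CPM in Polygalae_low (log2 0.90 ± 0.35). Without Polygalae_low replicate 3 the log2 ratio was 1.27. Aucklandiae_high, where ANGPTL4 was as high as in Schisandrae_high, had 1.59, 0.903 and 1.20 CPM of PDK4, which overlapped the 1.07, 0.751 and 0.585 CPM of Aucklandiae_low.

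CPT1A and ACADVL act in mitochondrial fatty acid oxidation. CPT1A, at chr11:68754620-68844410 on the minus strand (ENSG00000110090), makes the acylcarnitines that carry long-chain fatty acids into mitochondria. Zizyphi_high libraries held 55.4, 56.2 and 59.9 CPM, against 45.5, 40.8 and 43.3 CPM in Zizyphi_low (log2 0.40 ± 0.07, SE). Aucklandiae_high held 58.3, 54.3 and 54.6 CPM, against 46.3, 43.8 and 43.0 CPM in Aucklandiae_low (log2 0.33 ± 0.07). Schisandrae went the other way, with 33.9, 37.2 and 32.8 CPM at the high dose, against 42.0, 43.9 and 54.2 CPM at the low dose (log2 -0.43 ± 0.07). In Polygalae the high dose held 41.6, 37.9 and 41.0 CPM, against 45.8, 50.3 and 50.1 CPM at the low dose (log2 -0.28 ± 0.07). High and low dose libraries of these 4 herbs did not overlap, so CPT1A was higher at the high dose in a pair of herbs and lower in another pair.

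ACADVL, at chr17:7217125-7225273 on the plus strand (ENSG00000072778), encodes the dehydrogenase that takes the first oxidation step on very long acyl chains. Its means in Polygalae were 228 ± 14.3, 185 ± 17.7 and 136 ± 8.13 CPM at 10, 50 and 250 µg/mL (SD, n = 3), and neighbouring doses did not overlap. Polygalae_high libraries held 127, 141 and 141 CPM, against 212, 238 and 234 CPM in Polygalae_low, a log2 ratio of -0.74 ± 0.07 (SE). Scaled by raw totals, the means were 150 and 233 CPM. Schisandrae_high was the highest group, with 308, 331 and 320 CPM, against 246, 249 and 260 CPM in Schisandrae_low (log2 0.34 ± 0.07). The highest single library, at 333 CPM, was Liriopis_high replicate 1. The gene overlaps DLG4 on the opposite strand, with 53632 counts beside 378643 for ACADVL.

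The receptors PPARD and PPARG had unlike patterns. PPARD, at chr6:35342558-35428191 on the plus strand (ENSG00000112033), stood out in 1 group, with 197, 188 and 194 CPM in Schisandrae_high, against 120, 115 and 128 CPM in Schisandrae_low (log2 0.67 ± 0.07, SE). The next group, Polygalae_high, averaged 133 CPM. PPARD was the single gene of the 8 called in Liriopis, lower at the high dose (log2 -0.22 ± 0.08). That rests on Liriopis_high replicate 1 at 75.8 CPM, beside 119 and 114 CPM in the other libraries of the group, and without it the log2 ratio was -0.04.

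PPARG, at chr3:12287368-12434356 on the plus strand (ENSG00000132170), is the receptor best known from fat cell formation. Its clearest series was that of Polygalae, where the means were 20.7 ± 0.969, 24.5 ± 0.756 and 29.4 ± 0.937 CPM at 10, 50 and 250 µg/mL (SD, n = 3) and neighbouring doses did not overlap. Polygalae_high held 30.2, 28.3 and 29.6 CPM, against 20.2, 21.8 and 20.0 CPM in Polygalae_low (log2 0.51 ± 0.07, SE). Schisandrae_high averaged 21.1 CPM and Schisandrae_low 18.7 CPM (log2 0.18 ± 0.07). Wortmannin had the lowest level, 15.4, 14.9 and 15.4 CPM, against 18.6, 19.6 and 19 CPM in vehicle (log2 -0.33 ± 0.07).

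FABP3, a cytosolic carrier of fatty acids known from heart muscle, lies at chr1:31365625-31376850 on the minus strand (ENSG00000121769). Its group means ran from 0.0924 to 0.383 CPM, and every neighbouring pair of groups in that order overlapped. Groups farther apart did separate: wortmannin libraries held 0.215, 0.48 and 0.231 CPM, against 0.0731, 0.144 and 0.155 CPM in vehicle (log2 1.26 ± 0.48, SE). Zizyphi_high held 0.0473, 0.154 and 0.0758 CPM, against 0.253, 0.295 and 0.16 CPM in Zizyphi_low (log2 -1.26 ± 0.54). With so few counts behind each value, FABP3 was called in 0 of the 7 comparisons. Per kb of exon, the vehicle levels of the 8 genes were 48.2 CPM for ACADVL, 26.9 for PPARD, 10.8 for PLIN2, 6.72 for CPT1A, 5.18 for ANGPTL4, 4.21 for PPARG, 0.19 for PDK4 and 0.121 for FABP3. By that scale PPARD was the more abundant of the 2 receptors in these cells.

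**Figure D3:**
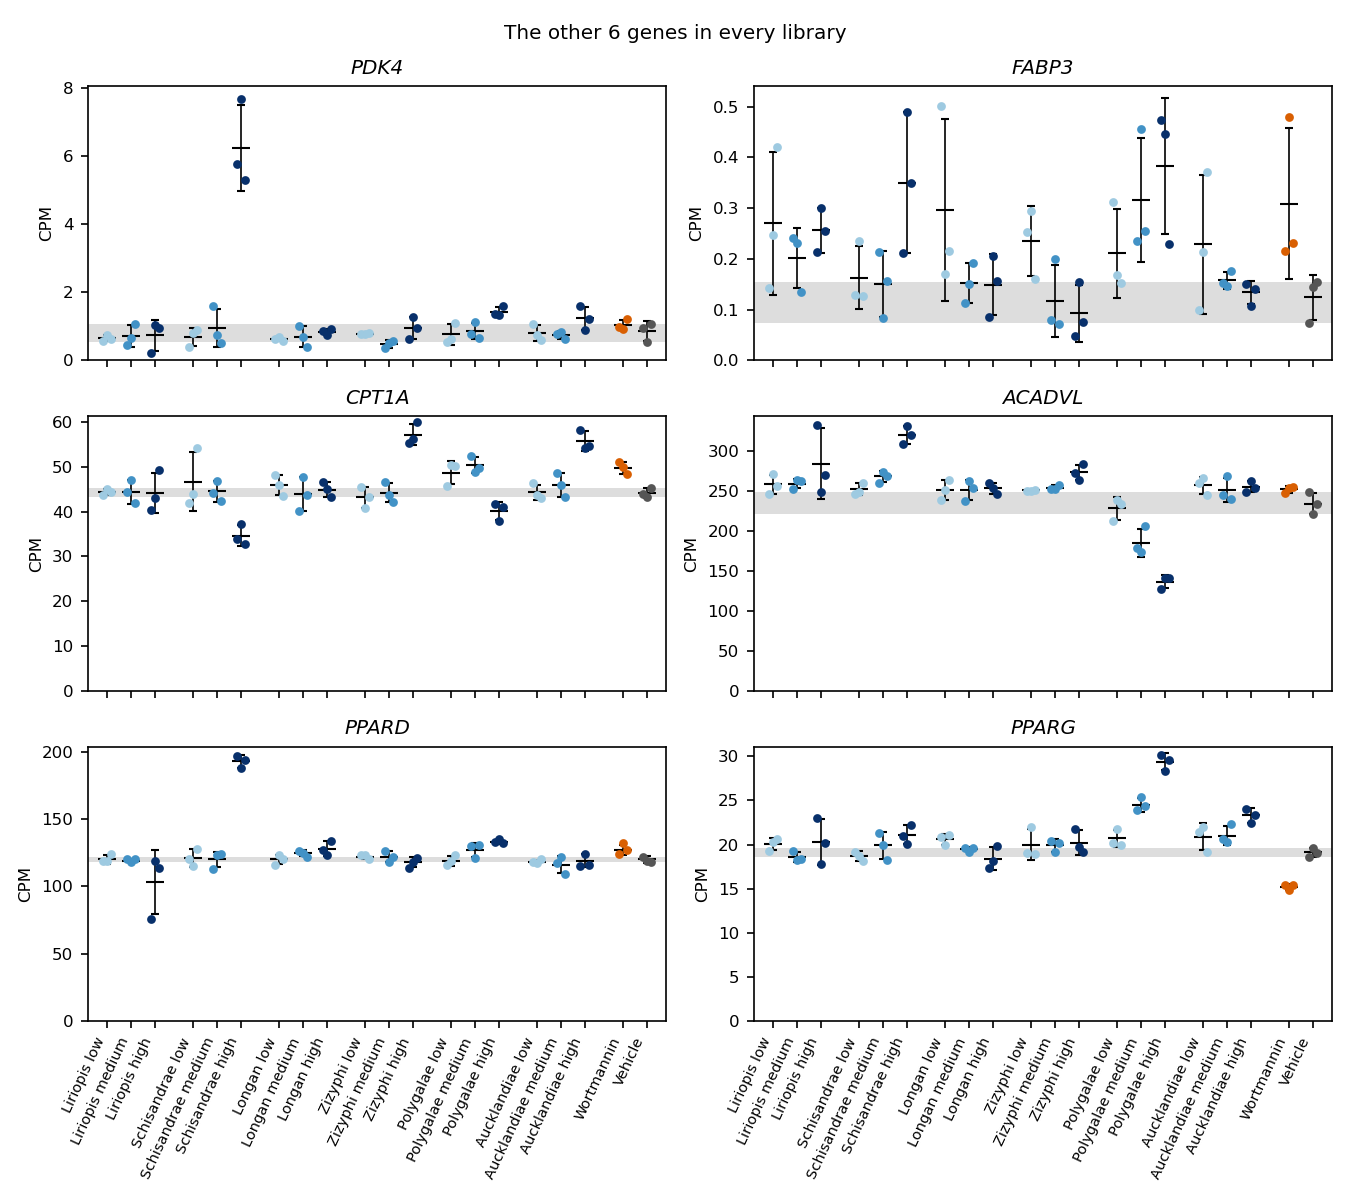
CPM of PDK4, FABP3, CPT1A, ACADVL, PPARD and PPARG in each library (points, linear axes from 0), with the mean and SD of 3 libraries in black and the vehicle range as a grey band. PDK4 and PPARD lie farthest above the band in Schisandrae_high, and both are also above it in every library of Polygalae_high. ACADVL and PPARG step with dose in Polygalae. FABP3 is at most 0.501 CPM in any library, with wide spreads within groups.

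A gene was called at an adjusted p under 0.05 in edgeR's quasi-likelihood test, and the counts of called genes among the 8 are given beside the share of all 17792 genes called. High over low dose, Schisandrae had 6 of 8 higher, against 25% of all genes, and 1 lower, against 24.8%. Polygalae had 3 higher (17.9% of all genes) and 2 lower (18.3%). Aucklandiae had 3 higher (5.32%) and 0 lower (5.3%), and Zizyphi 3 higher (0.292%) and 0 lower (0.382%). Longan had 0 in either direction (0.124% of all genes each way), and Liriopis 0 higher (11.8%) and 1 lower (4.27%). Without Liriopis_high replicate 1, a count taken after the data were seen, edgeR called 0 of 18078 genes in Liriopis, with 1058 at an unadjusted p under 0.05, and the median over the 8 was log2 0.00. Without Liriopis_low replicate 2 it called 12 genes, with 0 of the 8 among them. Wortmannin over vehicle had 1 higher, ANGPTL4 (5.45%), and 1 lower, PPARG (6.52%). The genes were chosen from these same contrasts, so nothing is read from the counts. The median log2 ratio over the 8 was 0.84 in Schisandrae, 0.36 in Polygalae, 0.24 in Aucklandiae, 0.21 in Zizyphi, 0.07 in Liriopis and 0 in Longan, beside 0 to 0.01 over all genes.

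**Figure D4:**
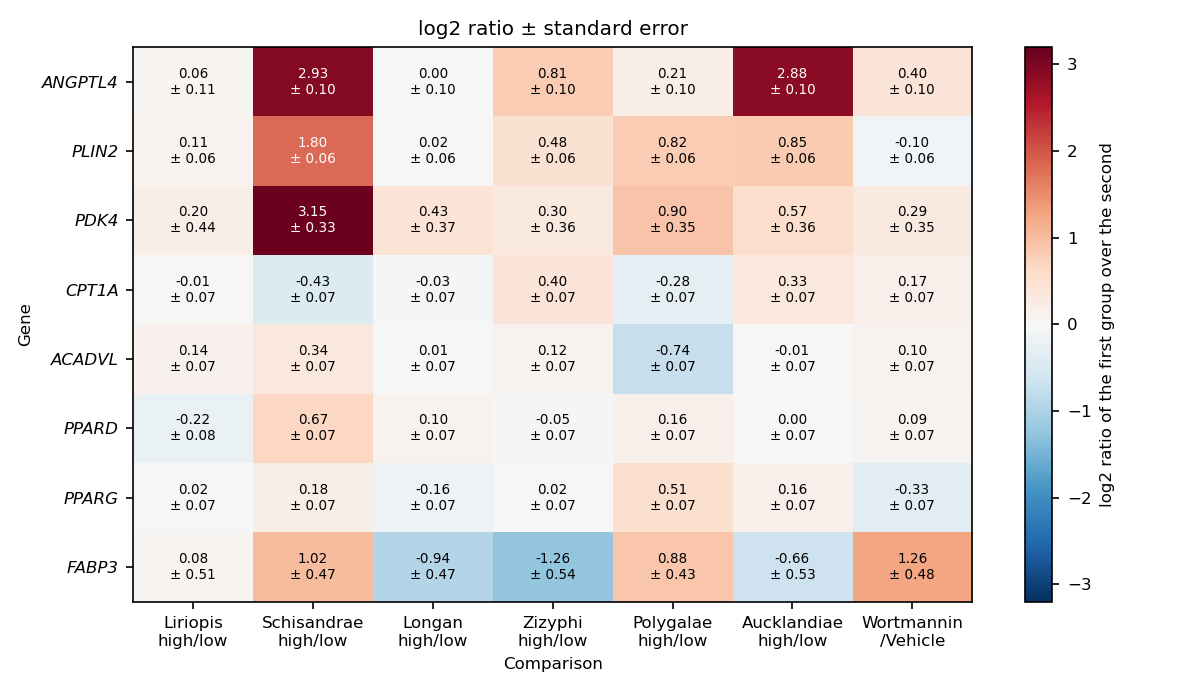
Fitted log2 ratios ± SE of the 8 genes (rows) for high over low dose of each herb and for wortmannin over vehicle (columns), with red above 0 and blue below. Schisandrae has the largest ratios for ANGPTL4 (2.93), PLIN2 (1.80) and PDK4 (3.15), while Aucklandiae has a like value in ANGPTL4 (2.88) and a smaller one in PDK4 (0.57 ± 0.36).

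Across the 20 group means on the log2 CPM scale, ANGPTL4 and PLIN2 correlated at r = 0.59. The closest pair among the 8 was PDK4 and PPARD (r = 0.88), followed by PLIN2 and PDK4 (0.81), and the most opposed was ACADVL and PPARG (-0.67). These are descriptions over 20 group means that share library sets and are set by few groups. Of 10698 genes with a mean of at least 5 CPM, those most like ANGPTL4 by the same measure were LPXN (0.951), NPTX1 (0.944), SLCO4A1 (0.924), VEGFA (0.918) and CDC42EP2 (0.909). Those most like PLIN2 were MTMR9 (0.952), RNF19B (0.951), PHLDA1 (0.95), COQ10B (0.948) and ENO2 (0.946). By Spearman's rho, LPXN stayed among the 5 most like ANGPTL4 and none of the 5 stayed for PLIN2.

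Whether other lipid genes moved with the 8 was examined in 5 lists of 112 genes, of which 96 were tested. These are genes of fatty acid oxidation, lipid droplets, fatty acid uptake and lipoprotein lipase, nuclear receptors with their coregulators, and the pyruvate dehydrogenase complex. Adjusted p values here are from edgeR over all tested genes of a comparison. At the high dose of Schisandrae 31 rose and 31 fell, beside 25% and 24.8% of all genes. At that of Polygalae 13 rose and 35 fell, beside 17.9% and 18.3% of all genes. For Aucklandiae 5 rose and 11 fell, beside 5.32% and 5.3% of all genes, so the risers there were at the background. The median log2 ratio over the 96 was -0.01, -0.11 and -0.03 in these 3 herbs, so the lists as a whole did not follow ANGPTL4 and PLIN2 upward. Without Liriopis_high replicate 1, which enters the shared estimate of spread, the Aucklandiae count was 26 in place of 16.

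In Schisandrae the lists around PLIN2 and ANGPTL4 moved both ways, as did all genes, of which 25% rose and 24.8% fell. List counts near those shares are not read as a result about the list. Of the lipid droplet list 8 rose and 6 fell of 20 (median log2 -0.03), and of the uptake list 5 rose and 7 fell of 16 (median log2 -0.18). VLDLR, the very low density lipoprotein receptor, rose to 78.5 ± 2.13 CPM at the high dose, against 30.4 ± 2.14 CPM at the low dose (SD, n = 3, log2 1.37, adjusted p = 1.1e-22). MGLL, which splits monoacylglycerol, rose by log2 0.93 (adjusted p = 4.7e-14) and HILPDA, a droplet protein induced by hypoxia, by 0.78 (adjusted p = 1.6e-08). LPIN1, a phosphatidate phosphatase, fell by 0.73 on the log2 scale and SOAT1, which esterifies cholesterol, fell by 0.61. ANGPTL2, a relative of ANGPTL4, fell by 0.96. PPARA, the third receptor of the family, rose by log2 0.79 (adjusted p = 8.9e-07), while its partner RXRA fell by 0.45. Of the oxidation genes tested, 6 rose and 13 fell of 29, led by CROT (log2 -0.77), ACAD9 (-0.60) and SLC22A5 (0.65).

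In Polygalae the oxidation list moved in the same direction as ACADVL. Of 29 genes tested, 18 fell and 2 rose, beside 18.3% and 17.9% of all genes. The list median was log2 -0.35. HADHA, the alpha subunit of the trifunctional protein, fell to 72.8 ± 0.745 CPM at the high dose, against 141 ± 2.25 CPM at the low dose (SD, n = 3, log2 -0.95, adjusted p = 2.5e-22). HADHB, its beta subunit, fell by 0.66 on the log2 scale and HSD17B4, a peroxisomal enzyme, by 0.65. Of the pyruvate dehydrogenase list 5 of 13 fell, among them PDHA1 (log2 -0.52). Of the lipid droplet list 4 rose and 5 fell of 20 (median log2 -0.08), which is near the shares of all genes. G0S2, an inhibitor of triglyceride lipase, rose by log2 1.45 (adjusted p = 3.8e-07), and that lipase, PNPLA2, fell by 0.42. PLIN3 was lower too (log2 -0.66, adjusted p = 1.1e-06), while LPIN2 was higher (log2 0.53). LPL, the enzyme that ANGPTL4 inhibits, stood at 0.892 CPM at the high dose and 0.547 CPM at the low dose (adjusted p = 0.049), and was under 1 CPM in these groups. The 10 astrocyte and glioma markers summed to 4320 CPM in Polygalae_high, the lowest of all groups, against 8470 CPM in vehicle. Most of the vehicle sum came from VIM (4790 CPM) and CD44 (2820 CPM). The part of this shift in the lipid genes was not tested.

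In Aucklandiae 5 of the 96 lipid genes rose with ANGPTL4 and 11 fell, beside 5.32% and 5.3% of all genes. VLDLR rose by log2 0.61 (adjusted p = 8e-10), MGLL by 0.48, G0S2 by 1.11 and PDK1, a sister kinase of PDK4, by 0.55 (adjusted p = 9.2e-07). ANGPTL2 fell by 0.76 on the log2 scale (adjusted p = 1.2e-11) and CD36, a fatty acid translocase, by 0.70. None of 29 oxidation genes rose at an adjusted p under 0.05 and 5 fell, with CPT2 at log2 -0.22. HADHA was at 147 CPM at the high dose and 150 CPM at the low dose (log2 -0.02, SE 0.04, adjusted p = 0.86).

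PPARGC1A, a coactivator of PPARs and of mitochondrial genes, moved in opposite directions between herbs. Schisandrae_high libraries held 0.127, 0.538 and 0.306 CPM, against 1.94, 2.11 and 2.06 CPM in Schisandrae_low (log2 -2.68, adjusted p = 8.9e-12). Aucklandiae_high held 0.491, 0.65 and 0.742 CPM, against 2.01, 2.36 and 2.45 CPM in Aucklandiae_low (log2 -1.83, adjusted p = 2.6e-08). Polygalae_high held 9.25, 8.81 and 8.66 CPM, against 5.15, 4.17 and 3.88 CPM in Polygalae_low (log2 1.02, adjusted p = 5.5e-07). The difference of those changes between Aucklandiae and Polygalae, tested after the values were seen, was log2 -2.85 ± 0.27 (SE, adjusted p = 1.7e-11), in a contrast where 22.8% of all genes were called. For Schisandrae against Aucklandiae 32.6% of all genes were called, and PPARGC1A was not (log2 -0.85 ± 0.37, adjusted p = 0.077). PPARGC1A was thus lowest in the 2 groups where ANGPTL4 was highest. The change of HADHA differed between Aucklandiae and Polygalae by log2 0.93 ± 0.06 (adjusted p = 2.8e-16). Between Schisandrae and Aucklandiae it did not (log2 0.03 ± 0.06, adjusted p = 0.77).

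Lists of other known inducers of ANGPTL4, PLIN2 and PDK4 were read beside them. Of 24 hypoxia genes, 15 rose and 3 fell in Schisandrae, 13 rose and 0 fell in Aucklandiae, and 11 rose and 8 fell in Polygalae. Of all genes, 25% rose and 24.8% fell in Schisandrae, 5.32% and 5.3% in Aucklandiae, and 17.9% and 18.3% in Polygalae. NDRG1 rose by log2 1.67 in Schisandrae, 0.86 in Aucklandiae and 0.48 in Polygalae, and VEGFA by 1.08, 0.73 and 0.25. Among the 8 that fell in Polygalae were P4HA1 (log2 -0.84) and ALDOC (log2 -1.12). Of 17 glucocorticoid genes, beside the same shares, 6 rose and 3 fell in Schisandrae, 1 rose and 6 fell in Aucklandiae, and 7 rose and 4 fell in Polygalae. KLF9, a target of the glucocorticoid receptor, fell by 0.61 on the log2 scale in Aucklandiae and rose by 0.54 in Polygalae. The part of either signal in the levels of the 8 genes was not tested.

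**Figure D5:**
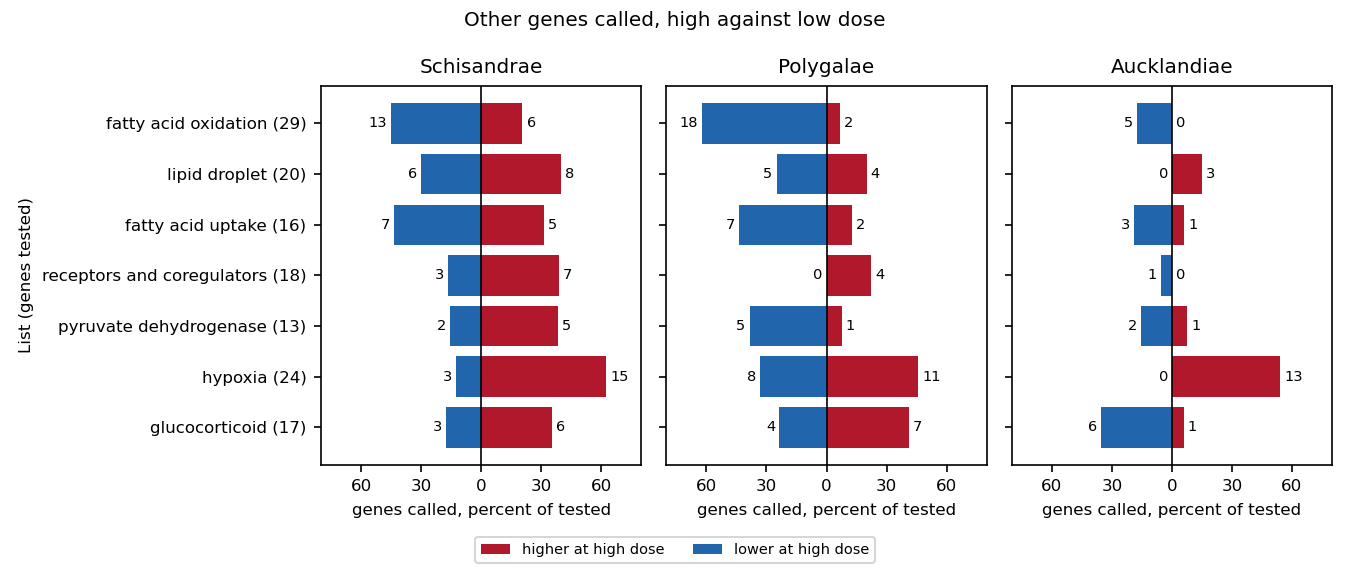
Genes called higher (red, right of 0) or lower (blue, left of 0) at high over low dose, as percent of the genes tested in each list, with the counts at the bar ends. The oxidation list leans to lower in Polygalae (18 of 29), and the hypoxia list to higher in Aucklandiae (13 of 24) and Schisandrae (15 of 24). Of all genes, 18.3% were called lower in Polygalae, and 5.32% and 25% higher in Aucklandiae and Schisandrae.

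Of the other herbs, Zizyphi and Longan had few calls among the lipid genes, and the Liriopis count depended on single libraries. Zizyphi had 1 call, ABHD5 (log2 0.27, adjusted p = 0.044), an activator of triglyceride lipase. Of all genes, 0.292% were higher and 0.382% lower there. The Zizyphi count was 3 without Liriopis_high replicate 1. Longan had 1, CPT2 (log2 0.29, adjusted p = 0.041), beside 0.124% of all genes each way, and 7 without that library. With single Longan or Zizyphi libraries left out, the counts were between 0 and 1. In Liriopis 14 of the 96 rose and 3 fell, beside 11.8% and 4.27% of all genes, so both counts were near the background. Of the risers, 9 were in oxidation. Without Liriopis_high replicate 1 or without Liriopis_low replicate 2, 0 were called. In those fits 3 and 25 of the 96 had an unadjusted p under 0.05 in edgeR. DESeq2 on all libraries called 18. The count of 17 was 9 without Liriopis_low replicate 1, 2 without Liriopis_low replicate 3, 52 without Liriopis_high replicate 2 and 45 without Liriopis_high replicate 3. Wortmannin over vehicle had 12 higher (5.45% of all genes) and 7 lower (6.52%), led by ANGPTL2 (log2 0.75, adjusted p = 3.4e-11) and PDK2 (log2 0.68, adjusted p = 5.5e-08). PDK1 was among the lower genes (log2 -0.46). Drug and library name prefix cannot be told apart in this comparison. The count of 19 was 31 without Liriopis_high replicate 1, 10 without Vehicle replicate 2, and 12 without Wortmannin replicate 1 or replicate 3.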

How the data were processed

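The authors deposited 1 table of RSEM expected counts for 60 libraries of SW1783 cells. Per the submitters' processing notes, FastQC 0.11.9, Trim Galore 0.6.5, STAR 2.7.3a, RSEM 1.3.3 and GRCh38 were used. No annotation release or strand setting is given there. Libraries came from a directional mRNA kit with 100 bp paired reads, per the labels' protocols. Fractional values made up 11.02% of the table the authors deposited, and each expected count was rounded before testing. Whether the 3 libraries of a group are separate cultures is unlabelled, so the p-values cover a spread between libraries that may be technical.

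All libraries entered 1 edgeR 4.0.16 fit (R 4.3.3) with a mean per group, TMM normalisation, a minimum count of 10 in the expression filter and 40 residual degrees of freedom. Adjustment was Benjamini-Hochberg within each of 7 comparisons over 17792 genes. The SE of a log2 ratio is the ratio divided by the root of its F statistic. CPM uses TMM-normalised totals, and log2 CPM with a prior count of 2 served correlations only. High and low doses of a herb share a library set, read from the first part of the library name. Vehicle and wortmannin each have a set of their own. Symbols, coordinates and exon lengths are from GENCODE 29 (GRCh38), and promoters from RefSeq, where all 8 genes matched. The fit was also run on counts simulated from its own estimates of spread. That simulation held no outlying library and no difference between library sets, so it says nothing about either. The 8 genes, the lists and the tests were chosen with earlier results of these data known. Named list genes are up to 4 called genes with the smallest p per list and comparison, plus PPARA, RXRA, PPARGC1A, CPT2, HADHA, HILPDA, LPL and PDK1, and a further gene that is not reported here.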

Additional observations from a re-analysis of the deposited data

Results flagged for a closer look

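High over low dose, 3 of the 8 genes moved in opposite directions in pairs of herbs, with all 3 high dose libraries on 1 side of all 3 low dose libraries in each herb. These differences were not tested, because the genes were chosen from the same contrasts. The share of all genes that separate in this way was not counted, so nothing is read from the number. In Longan, 3 of the 8 genes had no overlap between high and low dose while 0 were called. CPT1A was higher at the high dose of Zizyphi and lower at that of Schisandrae, a difference of 0.83 on the log2 scale. ACADVL was higher in Schisandrae and lower in Polygalae, a difference of 1.08. PPARG was higher in Polygalae and lower in Longan, a difference of 0.67, of which the Longan part was not called.

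For the 9 other genes named whatever their values, the change from low to high dose was also compared between herbs in the same edgeR fit, in 18 differences chosen after the data were seen and adjusted over all genes. Between Aucklandiae and Polygalae the log2 change differed by -2.85 for PPARGC1A (adjusted p = 1.7e-11), 0.93 for HADHA (adjusted p = 2.8e-16), 0.61 for PDK1 (adjusted p = 3.9e-05) and -0.39 for CPT2 (adjusted p = 0.0017). Doses were 500 over 20 µg/mL for Aucklandiae and 250 over 10 µg/mL for Polygalae. Between Schisandrae and Aucklandiae it differed by 0.64 for PPARA (adjusted p = 0.0047), -0.42 for RXRA (adjusted p = 0.0021) and 0.5 for HILPDA (adjusted p = 0.0072). Of all genes, 22.8% were called for Aucklandiae against Polygalae and 32.6% for Schisandrae against Aucklandiae, so 3 of 9 in the second contrast is near the background. The other 11 differences had an adjusted p of 0.05 or more, among them PPARGC1A between Schisandrae and Aucklandiae (-0.85 ± 0.37, SE, adjusted p = 0.077).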

How the results depend on the processing

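Of 715 log2 ratios of the 8 genes under other settings, 710 stayed within the spread between replicates, 5 moved further, 4 of them with a library left out, and 0 reversed a called direction. Leaving FABP3 aside, the largest shift was 0.03 under other tools, filters or fits and 0.4 with a library left out, while FABP3 shifted by up to 0.56. FABP3 failed the filter in some smaller fits and has no value there. Counts of the 96 other lipid genes called were less stable. Requiring a fold change of 1.5 left 1 for Liriopis, 22 for Schisandrae, 0 for Longan and Zizyphi, 11 for Polygalae, 5 for Aucklandiae and 4 for wortmannin. With no filter on low counts there were 11 for Liriopis, 0 for Longan and Zizyphi and 12 for wortmannin. With own library sets only there were 0 for Liriopis, 2 for Longan and Zizyphi, 25 for Aucklandiae and 29 for wortmannin, and DESeq2 gave 2 for Longan. The cause was not tested. With single libraries left out, the counts ran from 0 to 52 for Liriopis, 0 to 7 for Longan, 0 to 3 for Zizyphi, 13 to 26 for Aucklandiae and 10 to 31 for wortmannin. Replicate numbers did not pair the libraries (correlations of deviations -0.08 to 0.14), and with a replicate block the counts were 17, 62, 1, 1, 47 and 16 for Liriopis, Schisandrae, Longan, Zizyphi, Polygalae and Aucklandiae and 21 for wortmannin. PLIN2 in Schisandrae_high was 187 CPM on raw totals.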
